A study of Mus musculus with 12 samples.

Results

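The 8 genes described here, Inhbb, C1ql2, Epb41l5, Steap3, Tmem37, Clasp1, Dbi and Ptpn4, lie within 1 Mb of Ralb on mouse chromosome 1 and were chosen from the 42 genes annotated in that window. They were picked with measured values of these libraries known (which values is not stated), so their differences are given as a description and carry no test of their own. All 8 had enough reads to pass the filter on low counts, as did 13 of the 42 genes of the window and 13456 of the 35675 annotated genes of the series. Tmem37 passed the filter only through the RalAB cKO libraries, the group in which it was highest. Ralb and its relative Rala encode small GTPases of the Ras family that act in the traffic of secretory vesicles.

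Messenger RNA was sequenced from spinal cord cells of mice at postnatal day 10, sorted by flow cytometry for red fluorescence and large forward scatter, a gate that the submitters used to enrich oligodendrocytes. RalAB cKO mice carried CnpCre, the floxed alleles RalAflox/flox and RalBflox/flox, and the reporter Rosa26-StopFlox-TdTomato. RalA cKO mice carried CnpCre, RalAflox/flox and the same reporter, and control mice CnpCre and the reporter. There were 4 mice in each group and 1 library from each mouse. All 3 groups thus carried the Cre driver and the tdTomato reporter, both mutants carried the floxed Rala alleles, and the floxed Ralb alleles were present in RalAB cKO mice alone. CnpCre is expressed in the oligodendrocyte lineage and in Schwann cells, so the deletion is limited to cells in which that driver has been active. Sex, strain background and the exons removed are not given in the sources used here.

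A floxed allele carries loxP sites around part of a gene, and Cre recombinase removes the stretch between them. Such alleles are made in embryonic stem cells of a given strain, and the chromosome next to the allele is inherited together with it when mice are crossed, so that neighbouring genes can differ in sequence between floxed mice and controls. The floxed Ralb alleles given by the labels and any linked stretch of chromosome 1 would be carried by the same 4 RalAB cKO mice, and their effects cannot be told apart in this design.

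The depth per library was 10.93 to 15.44 M estimated counts. Levels are given as CPM, counts per 1 M counts of a library scaled by TMM, and 12155 to 13165 genes per library were at 1 CPM or more. The oligodendrocyte markers Mbp, a myelin structural protein, and Mog, a protein of the myelin surface, were abundant in every library. Mbp averaged 56200 ± 8090 CPM in RalAB cKO, 44700 ± 4260 CPM in RalA cKO and 44100 ± 5960 CPM in control, and Mog 1580 ± 146 CPM in RalAB cKO, 2910 ± 314 CPM in RalA cKO and 2390 ± 371 CPM in control (mean ± SD, n = 4 each). Microglia markers stood apart in RalAB cKO: the 12 genes of that list, of which none was at 0, summed to 1160 to 2120 CPM in RalAB cKO, 178 to 290 CPM in RalA cKO and 255 to 562 CPM in control. The neuron list (9 genes, none at 0) ran the other way, at 25.3 to 39.8 CPM in RalAB cKO, 43.2 to 80.2 CPM in RalA cKO and 64.5 to 143 CPM in control. In bulk RNA, fewer cells of a type and less RNA per cell cannot be told apart.

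Ralb itself is the reference point of the window (GRCm38 chr1:119470305-119504794, minus strand). Its level in mice 1 to 4 was 14.0, 17.2, 15.9 and 16.0 CPM in RalAB cKO, 17.5, 17.4, 13.4 and 13.4 CPM in RalA cKO, against 18.9, 15.1, 23.3 and 19.5 CPM in control. The CPM ranges of the 3 groups overlapped. In the deposited TPM, which divide by transcript length and were not scaled by TMM, Ralb was at 10.4 to 12 TPM in RalAB cKO and 8.45 to 11.8 TPM in RalA cKO, against 12.1 to 19.0 TPM in control, so that both mutants lay below control. The log2 fold change was 0.03 (95% interval -0.27 to 0.34) for RalAB cKO over RalA cKO, with an adjusted p of 0.936 in edgeR, and -0.28 (-0.58 to 0.02) for RalAB cKO over control, with an adjusted p of 0.216 in edgeR. For RalA cKO over control, where the labels give no floxed Ralb alleles, it was -0.32 (-0.62 to -0.02), with an adjusted p of 0.229 in edgeR. A sum over the whole transcript does not check the removal of exons whose extent is not given, and ENSMUST00000004565, 1 of its 3 transcripts, held 99.8% of the counts of the gene. Rala, on another chromosome, had 42.9, 32.2, 39.8 and 36.1 CPM in RalAB cKO, 33.1, 42.4, 42.7 and 41.8 CPM in RalA cKO, against 35.5, 59.3, 47.0 and 56.3 CPM in control, again with overlapping ranges. In TPM, Rala was at 18.5 to 28.3 in RalAB cKO and 18.2 to 25.4 in RalA cKO, against 32.7 to 41.4 in control, with no overlap between either mutant and control. The log2 fold change of Rala was -0.39 (-0.68 to -0.09) for RalAB cKO over control, with an adjusted p of 0.0832 in edgeR. It was -0.31 (-0.6 to -0.01) for RalA cKO over control, with an adjusted p of 0.236 in edgeR.

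The genes spread over both sides of Ralb. Epb41l5 (chr1:119545037-119649000, minus strand) and Inhbb (chr1:119415465-119422248, minus) are its nearest members, 40.2 and 48.1 kb from the ends of the Ralb gene body. Ptpn4 (chr1:119652467-119837613, minus) follows at 148 kb, Tmem37 (chr1:120067377-120074074, minus) at 563 kb, Dbi (chr1:120113280-120121078, minus) at 608 kb and Steap3 (chr1:120190757-120272705, minus) at 686 kb. C1ql2 (chr1:120340582-120343174, plus) lies 836 kb away, and Clasp1 (chr1:118389058-118612678, plus) 858 kb away on the side of Inhbb. No other annotated protein-coding gene overlaps any of the 8.

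Promoter windows are shown for Tmem37, Steap3, Inhbb and C1ql2, the 4 members whose levels in RalAB cKO lay furthest from those in control. Each runs from 250 bases before to 50 bases after an annotated start and comes from RefSeq (GRCm38.p6), which gave windows for 6 of the 8 members. Capitals mark GAGGAA or its reverse TTCCTC, the core of sites bound by the myeloid transcription factor PU.1, and GGGCGG or its reverse CCGCCC, the GC box bound by Sp1. The motifs were chosen with the values known. The windows are Tmem37 chr1:120073731-120074030 (minus), Steap3 chr1:120265237-120265536 (minus), Inhbb chr1:119422199-119422498 (minus) and C1ql2 chr1:120340332-120340631 (plus).
Tmem37: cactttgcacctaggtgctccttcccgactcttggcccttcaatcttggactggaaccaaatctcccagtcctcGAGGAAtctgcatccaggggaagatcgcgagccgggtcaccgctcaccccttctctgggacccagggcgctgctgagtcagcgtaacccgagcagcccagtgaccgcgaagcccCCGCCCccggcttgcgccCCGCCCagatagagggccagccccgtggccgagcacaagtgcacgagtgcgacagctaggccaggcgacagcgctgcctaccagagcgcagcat
Steap3: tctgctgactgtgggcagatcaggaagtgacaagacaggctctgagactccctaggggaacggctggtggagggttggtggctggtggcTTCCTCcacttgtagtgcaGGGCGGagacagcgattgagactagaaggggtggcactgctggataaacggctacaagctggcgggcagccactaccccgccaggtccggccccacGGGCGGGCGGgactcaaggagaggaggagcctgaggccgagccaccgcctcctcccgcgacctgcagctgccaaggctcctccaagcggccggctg
Inhbb: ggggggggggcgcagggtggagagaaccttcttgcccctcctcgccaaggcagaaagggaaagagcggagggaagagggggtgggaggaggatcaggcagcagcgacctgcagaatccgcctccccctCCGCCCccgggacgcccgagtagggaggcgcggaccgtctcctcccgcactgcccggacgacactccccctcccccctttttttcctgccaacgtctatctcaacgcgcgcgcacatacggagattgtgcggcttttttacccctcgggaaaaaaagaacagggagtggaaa
C1ql2: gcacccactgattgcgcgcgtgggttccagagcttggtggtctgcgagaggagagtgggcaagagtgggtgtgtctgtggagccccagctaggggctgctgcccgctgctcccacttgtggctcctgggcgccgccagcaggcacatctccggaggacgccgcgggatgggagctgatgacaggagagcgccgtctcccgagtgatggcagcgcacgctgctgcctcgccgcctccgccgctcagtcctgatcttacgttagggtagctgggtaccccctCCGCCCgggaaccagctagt

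The Tmem37 window holds 1 GAGGAA and 2 GGGCGG motifs, and the Steap3 window 1 GAGGAA and 3 GGGCGG motifs, of which a pair overlap. RefSeq gives 3 further windows for Steap3, which hold 0, 0 and 1 GAGGAA, 0, 1 and 0 GGGCGG, and 4, 5 and 7 CG pairs. The Inhbb and C1ql2 windows hold no GAGGAA and 1 GGGCGG each. Of the members with windows that are not printed, Dbi has windows with 0 and 1 GAGGAA and no GGGCGG, and the Ptpn4 window holds neither motif. Of the 32851 RefSeq promoter windows of the same length, 28.3% hold GAGGAA and 35.7% hold GGGCGG on either strand. The 4 windows printed are rich in CG pairs, with 22 in Tmem37, 16 in Steap3 and 23 in both Inhbb and C1ql2, against a median of 7 over all windows. The Dbi windows, with 28 and 22, and the Ptpn4 window, with 44, are rich in them too, so this is not particular to the 4 printed. These letters describe the windows and say nothing of whether a factor was bound there. The Steap3 window is the one that holds the start of ENSMUST00000112640, the transcript with most of the Steap3 counts. The Tmem37 window ends at 120074030, inside the gene body given above. It does not hold 120074074, the start of ENSMUST00000056089, the only Tmem37 transcript, so its marked motifs lie downstream of that start.

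Tmem37 and Steap3 were the members with higher levels in RalAB cKO. Tmem37 encodes a membrane protein related to the gamma subunits of voltage-gated calcium channels. Across mice 1 to 4 it had 1.26, 2.53, 3.2 and 3.57 CPM in RalAB cKO mice, 0.447, 0.177, 0.436 and 0.285 CPM in RalA cKO mice, against 0.458, 0.317, 1.63 and 0.455 CPM in control mice. Every RalAB cKO library lay above every RalA cKO library, whereas control mouse 3 lay above RalAB cKO mouse 1. The fitted log2 fold change was 2.94 ± 0.56 (SE) for RalAB cKO over RalA cKO, a 7.7-fold higher level, and 1.83 ± 0.50 for RalAB cKO over control, 3.56-fold higher. For RalA cKO over control it was -1.11 ± 0.59. These values rest on few reads, 135 counts over the 4 RalAB cKO libraries, 16 over the RalA cKO libraries and 42 over the control libraries. Control mouse 3 held 26 of those 42, and without it the value was 2.64 for RalAB cKO over control and -0.30 for RalA cKO over control. In a fit to RalA cKO and control alone Tmem37 did not pass the filter on low counts, so that comparison had 18 alternatives.

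Steap3 encodes an endosomal ferrireductase that reduces iron delivered by transferrin. Its level was 5.05, 8.33, 8.07 and 7.53 CPM in RalAB cKO, 3.75, 1.68, 5.15 and 4.98 CPM in RalA cKO, against 2.36, 1.59, 3.75 and 2.36 CPM in control. All RalAB cKO libraries were above all control libraries, while RalAB cKO mouse 1 was just below RalA cKO mouse 3. The RalA cKO range overlapped with both other ranges. In the fit, Steap3 was at a log2 fold change of 1.51 ± 0.33 for RalAB cKO over control, 2.85-fold higher, 0.89 ± 0.32 for RalAB cKO over RalA cKO and 0.62 ± 0.34 for RalA cKO over control.

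The microglia marker sum was also higher in RalAB cKO than in both other groups, at 1160, 1460, 2050 and 2120 CPM in mice 1 to 4 of RalAB cKO, 261, 178, 290 and 277 CPM in those of RalA cKO, against 255, 414, 562 and 374 CPM in those of control. Between RalA cKO and control, the means of the sum and of Tmem37 were lower in RalA cKO, whereas the Steap3 mean was higher there. Of the 12 markers, 12 were higher in RalAB cKO than in RalA cKO and 11 were higher in RalAB cKO than in control at an adjusted p under 0.05 in edgeR. Set against that sum, Tmem37 was at 1.52 ± 0.295 CPM per 1000 CPM of microglia markers in RalAB cKO, 1.31 ± 0.356 in RalA cKO and 1.67 ± 0.92 in control (SD, n = 4 each), with overlapping ranges in all 3 groups. For Steap3 the same ratio was 4.38 ± 0.929 in RalAB cKO, 14.9 ± 3.99 in RalA cKO and 6.52 ± 2.22 in control, so that its mean per unit of microglia marker RNA was lowest in RalAB cKO and highest in RalA cKO. The RalA cKO libraries, at 9.43 to 18.0, did not overlap the RalAB cKO libraries, at 3.56 to 5.69. The ratios were chosen after the values were seen, and the part of microglial RNA in the levels of the 2 genes was not tested.

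Inhbb, C1ql2 and Epb41l5 were the members with lower levels in RalAB cKO than in control. Inhbb encodes the beta B subunit of activins and inhibins, secreted ligands of the TGF-beta family. It had 1.48, 0.653, 0.32 and 0.684 CPM in RalAB cKO, 1.61, 1.5, 1.48 and 2.56 CPM in RalA cKO, against 3.8, 1.98, 3.5 and 1.64 CPM in control. No RalAB cKO library reached the control range, and RalAB cKO mouse 1 touched the lowest value of RalA cKO. The log2 fold change was -1.79 ± 0.44 for RalAB cKO over control (3.45-fold lower), -1.18 ± 0.45 for RalAB cKO over RalA cKO and -0.61 ± 0.41 for RalA cKO over control. Without RalAB cKO mouse 1 the value against RalA cKO was -1.69 and passed the threshold that it missed with all 12 libraries. Inhbb had 41 counts in all in RalAB cKO, 88 in RalA cKO and 157 in control.

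C1ql2 encodes a secreted protein of the C1q family that organises synapses. Its level was 3.12, 2.53, 1.68 and 2.89 CPM in RalAB cKO, 7.42, 2.92, 5.15 and 3.2 CPM in RalA cKO, against 9.3, 5.47, 7.25 and 5.55 CPM in control. The RalAB cKO libraries were all below the control libraries, and the RalA cKO libraries overlapped with both. Its log2 fold change was -1.43 ± 0.31 for RalAB cKO over control (2.7-fold lower), -0.86 ± 0.32 for RalAB cKO over RalA cKO and -0.57 ± 0.30 for RalA cKO over control.

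Epb41l5 encodes a FERM domain protein that acts in cell polarity and in the epithelial to mesenchymal transition of mouse embryos. It was the member nearest to Ralb and was lower in both mutants, with 4.01, 2.86, 1.6 and 2.89 CPM in RalAB cKO, 3.13, 2.56, 3.23 and 2.06 CPM in RalA cKO, against 5.76, 6.03, 5.06 and 4.0 CPM in control. The control libraries stood above all RalA cKO libraries, and RalAB cKO mouse 1 lay just inside the control range. Its log2 fold change was -0.87 ± 0.28 for RalAB cKO over control, -0.93 ± 0.28 for RalA cKO over control and 0.05 ± 0.29 (95% interval -0.51 to 0.62) between RalAB cKO and RalA cKO. The RalA cKO mice were not labelled as carrying floxed Ralb alleles. The call in RalAB cKO over control was lost without RalAB cKO mouse 2, 3 or 4 (-0.88, -0.68 and -0.88), without RalA cKO mouse 2 (-0.87) and without control mouse 1, 2 or 3 (-0.82, -0.79 and -0.90). Over the 19 alternatives it passed in 9.

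The neuron marker sum was also lower in RalAB cKO than in control, at 30.5 ± 6.77 CPM in RalAB cKO, 56.9 ± 16.4 CPM in RalA cKO and 89.1 ± 36.8 CPM in control. Between RalAB cKO and RalA cKO the means of the sum, Inhbb and C1ql2 were lower in RalAB cKO. The Epb41l5 mean was not, at 2.84 CPM in RalAB cKO and 2.75 CPM in RalA cKO. Of the 8 tested neuron markers 3 were lower in RalAB cKO than in control at an adjusted p under 0.05 in edgeR, and none was higher. Per 1000 CPM of neuron markers, C1ql2 was at 83.8 ± 14.5 CPM in RalAB cKO, 82.6 ± 29.7 in RalA cKO and 83.1 ± 26.7 in control. For Inhbb this ratio was 24.3 ± 10.2 in RalAB cKO, 33.6 ± 14.5 in RalA cKO and 31.5 ± 10.7 in control, and for Epb41l5 it was 91.8 ± 20.7 in RalAB cKO, 50.6 ± 16.3 in RalA cKO and 64.3 ± 22.2 in control. The ranges of the ratios overlapped between all groups for each of the 3 genes. Sums of oligodendrocyte precursor markers (7 genes, none at 0) also differed, at 2560 ± 275 CPM in RalAB cKO, 2570 ± 236 CPM in RalA cKO and 3120 ± 538 CPM in control, and 4 of the 7 were lower in RalAB cKO than in control. Per 1000 CPM of these precursor markers, C1ql2 was at 0.992 ± 0.206 CPM in RalAB cKO, 1.78 ± 0.636 in RalA cKO and 2.22 ± 0.548 in control. Inhbb was at 0.297 ± 0.164 in RalAB cKO, 0.703 ± 0.223 in RalA cKO and 0.864 ± 0.286 in control. Epb41l5 was at 1.09 ± 0.302 in RalAB cKO, 1.07 ± 0.189 in RalA cKO and 1.71 ± 0.468 in control. By this ratio the RalAB cKO libraries lay below both other groups for C1ql2 and Inhbb and overlapped both for Epb41l5. Astrocyte markers (8 genes, none at 0) summed to 227 ± 21.6 CPM in RalAB cKO, 284 ± 62.5 CPM in RalA cKO and 337 ± 102 CPM in control, with 5 of the 8 lower in RalAB cKO than in control. The part of these cell types in the levels of Inhbb, C1ql2 and Epb41l5 was not tested.

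**Figure D1:**
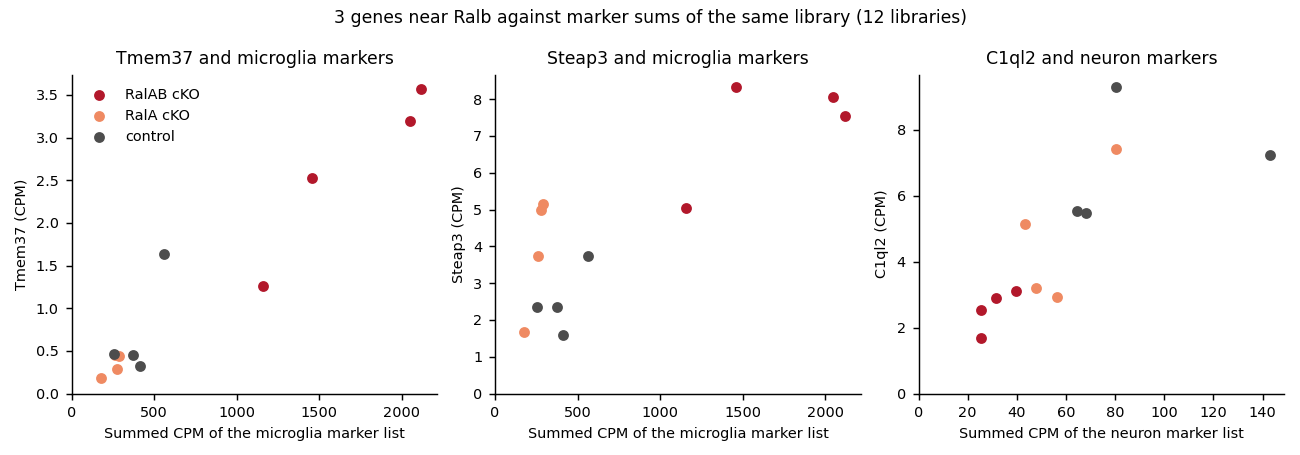
Tmem37 and Steap3 (CPM, y axes) against the summed CPM of 12 microglia markers, and C1ql2 against the summed CPM of 9 neuron markers, with 1 point per library coloured by group (RalAB cKO, RalA cKO, control). The 4 RalAB cKO libraries sit at 1160 to 2120 CPM of microglia markers, to the right of all others, and at 25.3 to 39.8 CPM of neuron markers, to the left of all others.

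Clasp1, Dbi and Ptpn4 made up the rest. Clasp1 encodes a protein that binds the plus ends of microtubules and stabilises them. It had 32.1, 23.8, 26.8 and 26.0 CPM in RalAB cKO, 22.6, 19.2, 23.9 and 19.3 CPM in RalA cKO, against 28.4, 43.6, 33.4 and 36.3 CPM in control. All RalA cKO libraries were below all control libraries, and RalAB cKO libraries overlapped with both. The log2 fold change was -0.74 ± 0.14 for RalA cKO over control (1.67-fold lower), -0.38 ± 0.14 for RalAB cKO over control and 0.36 ± 0.14 for RalAB cKO over RalA cKO. Without RalA cKO mouse 4 (-0.69) or control mouse 2 (-0.61) the first of these no longer passed the threshold. Without RalAB cKO mouse 1 (-0.48) or control mouse 1 (-0.47), and with transcript length offsets (-0.62), the second did pass.

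Dbi encodes the acyl-CoA binding protein, also known as diazepam binding inhibitor, and was by far the most abundant of the 8. It was at 128, 110, 154 and 142 CPM in RalAB cKO, 164, 128, 133 and 139 CPM in RalA cKO, against 118, 133, 147 and 161 CPM in control. The 3 ranges lay on top of each other. Fitted log2 fold changes were -0.07 (95% interval -0.31 to 0.18) for RalAB cKO over control and -0.08 (-0.33 to 0.16) for RalAB cKO over RalA cKO.

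Ptpn4 encodes a protein tyrosine phosphatase with FERM and PDZ domains. It varied widely within each group, with 7.79, 3.51, 2.88 and 2.81 CPM in RalAB cKO, 2.59, 5.31, 8.29 and 3.42 CPM in RalA cKO, against 3.34, 4.52, 7.75 and 3.46 CPM in control. In each group 1 mouse lay well above the other 3, so the intervals are wide: the log2 fold change was -0.17 (95% interval -0.97 to 0.63) for RalAB cKO over control and -0.20 (-1.01 to 0.61) for RalAB cKO over RalA cKO. Without RalAB cKO mouse 1 these became -0.64 and -0.68, and with transcript length offsets they turned to 0.07 and 0.51.

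**Figure D2:**
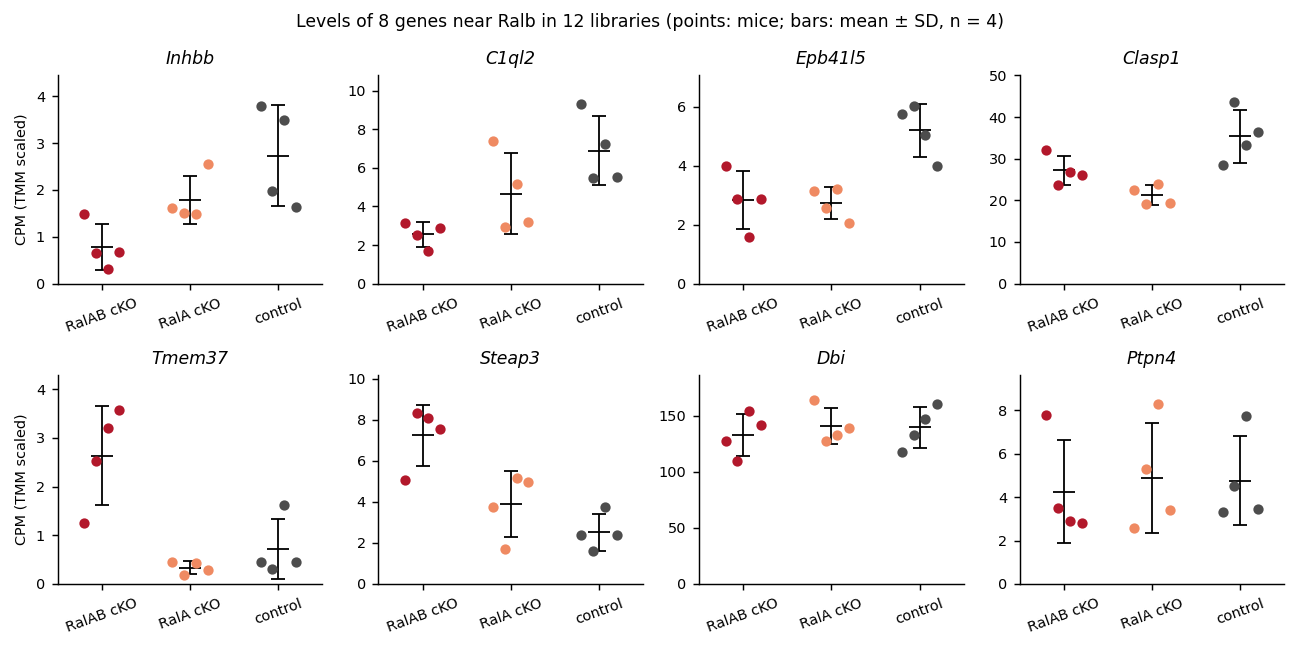
Level of each of the 8 genes (CPM, TMM scaled, y axes from 0) in RalAB cKO, RalA cKO and control, with 1 point per mouse and bars for the mean ± SD (n = 4 each). RalAB cKO libraries are separate from control libraries for Inhbb, C1ql2 and Steap3 and from RalA cKO libraries for Tmem37, while the Dbi and Ptpn4 groups overlap throughout.

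The 3 comparisons share libraries, so their values are set side by side and are not independent. In RalAB cKO over RalA cKO, 1 of the 8 genes (Tmem37) passed an adjusted p under 0.05, where 11.5% of all 13456 tested genes did. For RalAB cKO over control 5 of the 8 passed, Tmem37 and Steap3 higher and Inhbb, C1ql2 and Epb41l5 lower, where 18.4% of all tested genes did. In RalA cKO over control 1 of the 8 (Clasp1, lower) passed, where 2.78% of all tested genes did. Groups that did not overlap were seen in 1 member for RalAB cKO over RalA cKO (17.3% of all tested genes), in 3 members for RalAB cKO over control (19.2%) and in 2 members for RalA cKO over control (11.4%). Because the 8 genes were chosen with these values known, nothing is read from their counts. Their median log2 fold change was -0.02, -0.28 and -0.59 in the 3 comparisons in that order, beside -0.03, -0.01 and -0.02 over all tested genes. Their median absolute log2 fold change was 0.61, 1.15 and 0.62, beside 0.20, 0.26 and 0.23 over all tested genes. It was 0.31, 0.38 and 0.32 over all 13 tested genes of the window, and 0.13, 0.28 and 0.23 over the 5 that are not members. The choice of members shapes these medians too, so nothing is read from them.

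The window holds 5 further tested genes, which the choice of members left out: Ralb, Gli2, Tmem185b, Tmem177 and 3110009E18Rik. None of them passed the threshold in any of the 3 comparisons in edgeR, none had an unadjusted p under 0.05, and none was called by DESeq2. Gli2, a transcription factor of Hedgehog signalling, was the furthest from 0 among them, at -0.79 (95% interval -1.84 to 0.27) for RalAB cKO over control and -1.01 (-2.07 to 0.04) for RalAB cKO over RalA cKO, on 0.24 to 0.742 CPM in RalAB cKO, 0.447 to 1.86 CPM in RalA cKO and 0.635 to 1.75 CPM in control. Tmem185b, which lies 21.4 kb from Ralb and thus closer than any of the 8, was at 0.29 (-0.06 to 0.63) for RalAB cKO over control. Tmem177, a mitochondrial membrane protein, was at -0.04 (-0.41 to 0.32), and 3110009E18Rik at 0.08 (-0.52 to 0.69). With the whole window counted, 1 of 13 genes (7.69%) was called in RalAB cKO over RalA cKO, 5 of 13 (38.5%) in RalAB cKO over control and 1 of 13 (7.69%) in RalA cKO over control.

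**Figure D3:**
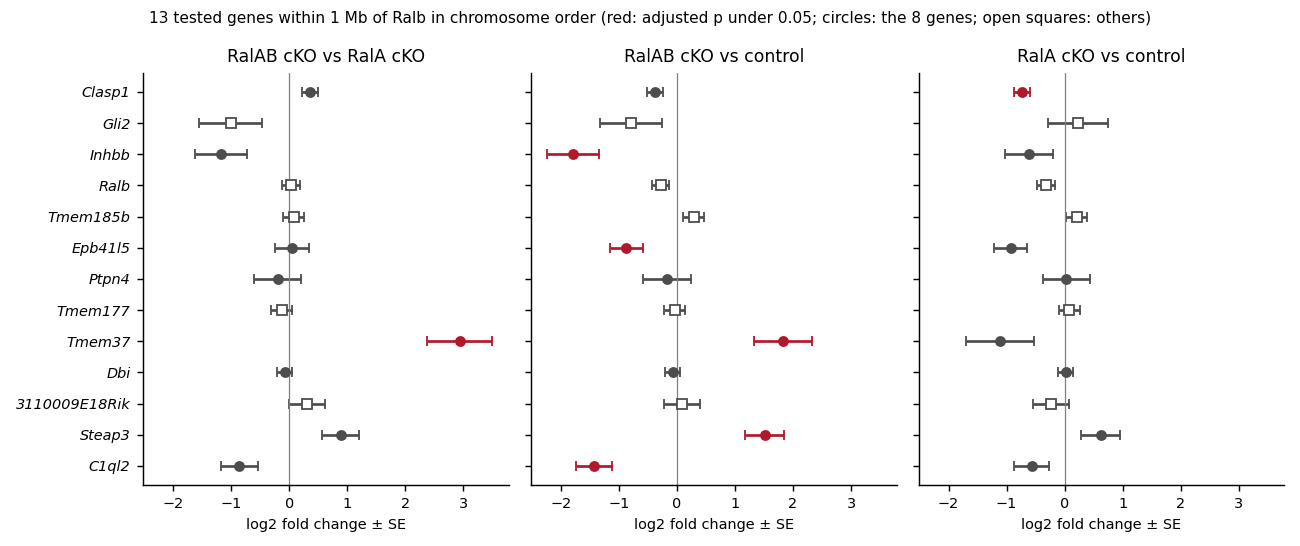
Log2 fold change ± SE (x axes) of the 13 tested genes of the window, listed in chromosome order, in RalAB cKO over RalA cKO, RalAB cKO over control and RalA cKO over control. Called genes (red) are 1, 5 and 1 of the 13, all among the 8 members (circles), and lie on both sides of 0 in RalAB cKO over control.

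Called genes were also counted by distance from Ralb along the chromosome. For RalAB cKO over control it was 38.5% within 1 Mb (5 of 13), 0 of 6 genes at 1 to 5 Mb by edgeR (2 at an unadjusted p under 0.05 and 1 by DESeq2), 21.2% at 5 to 20 Mb (24 of 113), 19.9% further along chromosome 1 (129 of 648) and 18.3% on other chromosomes (2320 of 12676). In RalAB cKO over RalA cKO, the comparison in which the floxed Ralb alleles are the labelled difference, it was 7.69% within 1 Mb (1 of 13), 0 of 6 at 1 to 5 Mb by edgeR (1 at an unadjusted p under 0.05 and 0 by DESeq2), 17.7% at 5 to 20 Mb (20 of 113), 15% further along (97 of 648) and 11.3% on other chromosomes (1433 of 12676). In RalA cKO over control, where the labels give no floxed Ralb alleles, it was 7.69% within 1 Mb (1 of 13), 0 of 6 at 1 to 5 Mb by edgeR (1 at an unadjusted p under 0.05 and 0 by DESeq2), 3.54% at 5 to 20 Mb (4 of 113), 3.09% further along (20 of 648) and 2.75% on other chromosomes (349 of 12676). All calls within 1 Mb are members, so nothing is read from the share of the nearest bin. The 2 nearest bins hold few genes, so each single call moves their share by several percentage points, and no trend was tested. The members nearest to the 1 Mb limit on the inside were C1ql2 and Clasp1, at 835.8 and 857.6 kb. Just outside were Nifk, at 1136 kb, with 18.2 ± 1.04 CPM in RalAB cKO, 18.3 ± 1.85 CPM in RalA cKO and 20.2 ± 1.02 CPM in control, and Tsn, at 1159 kb, with 52.3 ± 1.66 CPM in RalAB cKO, 55.9 ± 1.29 CPM in RalA cKO and 52.8 ± 5.38 CPM in control.

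**Figure D4:**
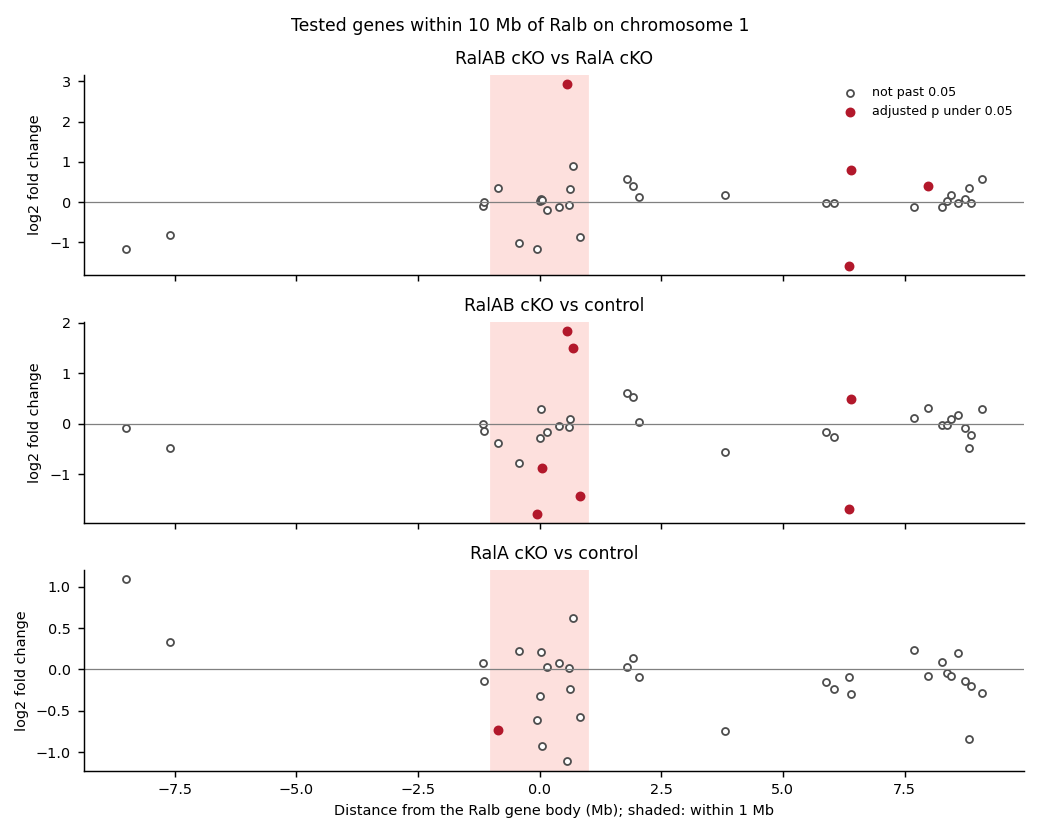
Log2 fold change (y axes) of every tested gene within 10 Mb of Ralb against its distance from the Ralb gene body (Mb, x axis), 1 panel per comparison, with the 1 Mb window shaded and called genes filled. In RalAB cKO over control the 5 called genes of the window are 2 above and 3 below 0, and none of the 6 genes at 1 to 5 Mb is called by edgeR in any panel (1 is called by DESeq2 in RalAB cKO over control).

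The same window around Rala, whose floxed alleles both mutants carry, had 8 tested genes of 35 annotated. In RalA cKO over control 0 of the 8 were called by edgeR, with 1 at an unadjusted p under 0.05 and 0 by DESeq2. In RalAB cKO over control 1 of 8 was called, Vps41, a subunit of the HOPS complex of late endosomes, which had 36.4 to 52.7 CPM in RalAB cKO, 47.0 to 52.9 CPM in RalA cKO and 53.9 to 67.2 CPM in control and a log2 fold change of -0.42 ± 0.12 (adjusted p = 0.0245, edgeR). For RalAB cKO over RalA cKO 0 of 8 were called by edgeR, 0 at an unadjusted p under 0.05 and 0 by DESeq2. The difference between the windows around Ralb and Rala was not tested.

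At the level of single transcripts, 65 transcripts of the 8 genes are in the files, 54 had counts, and 13 passed the filter. None of the 13 passed an adjusted p under 0.05 in edgeR in any comparison, where 1.52% (RalAB cKO over RalA cKO), 1.68% (RalAB cKO over control) and 0.117% (RalA cKO over control) of all 31497 tested transcripts did. At an unadjusted p under 0.05 there were 2, 6 and 2 of 13 in the same order. No share over all tested transcripts is given at that limit and the members were chosen with values known, so nothing is read from these counts. Inhbb, C1ql2 and Tmem37 have 1 transcript each, so their counts per gene and per transcript are the same numbers, and their standard errors were wider in the transcript fit, at 0.56, 0.38 and 0.66 against 0.44, 0.31 and 0.50 per gene for RalAB cKO over control. The main Epb41l5 transcript ENSMUST00000052404 held 93.6% of the counts of that gene, and its log2 fold change of -0.91 ± 0.38 for RalAB cKO over control was close to that of the whole gene.

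Steap3 counts sat mostly in ENSMUST00000112640 (80.2% over all libraries), with 54.71, 97.99, 94.98 and 95.0 counts in RalAB cKO and 42.0, 11.54, 57.0 and 64.02 counts in RalA cKO. In control, mice 2 and 4 had 20 and 25.97 counts of it, and mice 1 and 3 had none above rounding. Control mouse 3 had its counts instead in ENSMUST00000112643 (40.4) and ENSMUST00000140490 (19.6), and control mouse 1 had 10.22 in ENSMUST00000140490. The log2 fold change of ENSMUST00000112640 for RalAB cKO over control was 2.76 ± 1.22, with an SE far wider than that of the whole gene (0.33). Control libraries thus differed among themselves in which transcript was assigned the Steap3 reads, and gene sums do not depend on that assignment.

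Clasp1 reads were divided among ENSMUST00000204325, annotated as a target of nonsense-mediated decay (45.1%), ENSMUST00000165223 (32.2%) and ENSMUST00000189262 (11.2%). ENSMUST00000204325 had 161.6, 150.9, 134.1 and 142.4 counts in RalAB cKO, 103.7, 78.36, 99.38 and 145.5 in RalA cKO, and 236.1, 279.5, 239.0 and 184.8 in control, so that every control library exceeded every mutant library in raw counts. Its log2 fold change was -0.61 ± 0.18 for RalAB cKO over control and -1.0 ± 0.18 for RalA cKO over control. The other pair switched between libraries within groups: ENSMUST00000165223 had 232.4, 0, 116.9 and 177.3 counts in RalAB cKO, while ENSMUST00000189262 had close to 0 in mice 1 and 4 and 106.8 and 72.83 in mice 2 and 3. Of the 3 main Dbi transcripts, ENSMUST00000027634 held 53.5 ± 3.0% of the counts of the gene in RalAB cKO, 52.3 ± 2.3% in RalA cKO and 49.3 ± 5.71% in control. ENSMUST00000128408 ranged from 25.5% to 39.3% in RalAB cKO, 19.8% to 32.5% in RalA cKO and 23.4% to 32.3% in control. ENSMUST00000112648 varied most, at 9.11% to 22.8% in RalAB cKO, 13.4% to 27.7% in RalA cKO and 15% to 27% in control, with overlapping groups.

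Ptpn4 was mostly ENSMUST00000064091 (91.3%), at 90.9 ± 7.86% of the counts of the gene in RalAB cKO, 97.5 ± 2.25% in RalA cKO and 81.8 ± 8.62% in control. A minor Ptpn4 transcript annotated as a target of nonsense-mediated decay, ENSMUST00000166624, was chosen after its values were seen. It had 0, 0, 1.668 and 0 counts in RalAB cKO, 0 in all 4 RalA cKO libraries, and 8.638, 4.444, 5.912 and 10.47 counts in control. Control libraries were separate from both mutants, but the transcript held 4.31% of the gene and did not pass the filter on low counts, so no fold change was fitted.

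**Figure D5:**
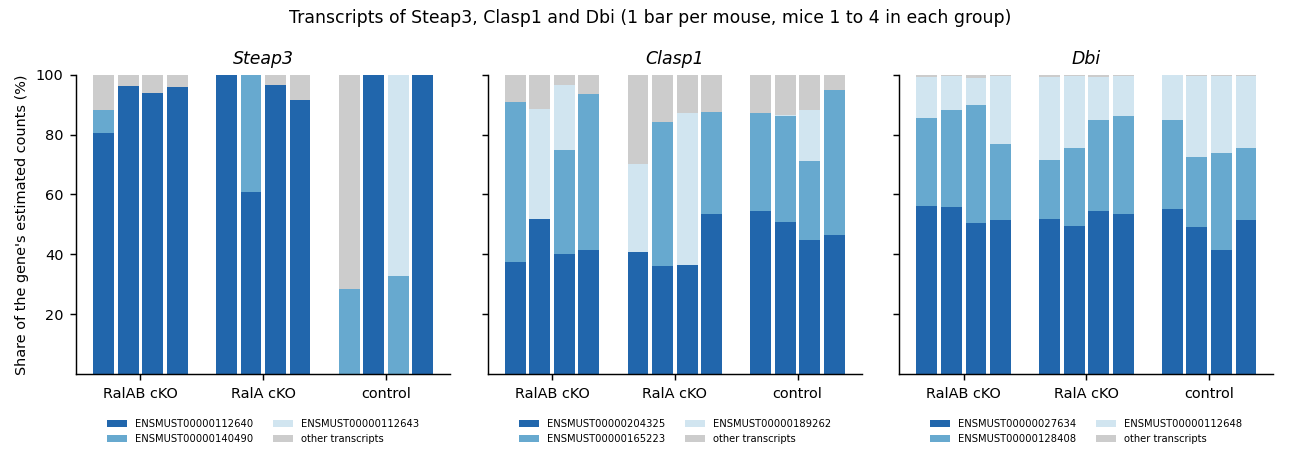
Share of the estimated counts of Steap3, Clasp1 and Dbi assigned to each transcript (%, y axis from 0 to 100), with 1 bar per mouse in RalAB cKO, RalA cKO and control. ENSMUST00000112640 holds 80.5% to 96.1% of Steap3 in RalAB cKO but swings between 0% and 100% among control mice, while ENSMUST00000027634 of Dbi stays between 41.6% and 56.3% in all 12 libraries.

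Levels were compared between genes per length, in TPM, within each group. Dbi stood alone, at 664 ± 92.8 TPM in RalAB cKO, 654 ± 71.3 in RalA cKO and 749 ± 128 in control (mean ± SD, n = 4 each), and Clasp1 followed at 8.11 ± 1.82 TPM in RalAB cKO, 6.88 ± 0.972 in RalA cKO and 13.5 ± 1.92 in control. C1ql2 came next in RalA cKO (4.04 ± 1.89 TPM) and control (6.58 ± 1.53), but in RalAB cKO (2.27 ± 0.715) it stood below Steap3 and Tmem37. Steap3 was at 4.37 ± 0.543 TPM in RalAB cKO, 2.41 ± 0.743 in RalA cKO and 2.1 ± 1.19 in control. Tmem37 moved most in this order, at 3.58 ± 1.15 TPM in RalAB cKO, above C1ql2, with 0.456 ± 0.193 in RalA cKO and 1.11 ± 1.02 in control, the lowest mean of the 8 in both. Ptpn4, Epb41l5 and Inhbb had means of 0.325 to 1.84 TPM over the groups. The libraries of neighbours in the order overlapped, apart from Dbi and Clasp1 in all groups, Clasp1 and Steap3 in RalAB cKO, and Clasp1, C1ql2 and Steap3 in control. On this scale Steap3 of control mouse 3 (3.81 TPM) lay above the lowest RalAB cKO library (3.7 TPM), an overlap that its CPM did not have.

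Tmem37 had the furthest log2 fold change of the 8 between RalAB cKO and RalA cKO, and the 5 genes whose log2 CPM over the 12 libraries was most like its own were Ly6e (Pearson r = 0.981), Vsir (0.979), Tbxas1 (0.978), Ccdc88b (0.976) and Selplg (0.975). The r is a description, since the 12 points fall into 3 groups and share the group difference. Ly6e was at 37.6 to 63.6 CPM in RalAB cKO, 11.2 to 17.2 CPM in RalA cKO and 16.8 to 32.1 CPM in control. Tbxas1 was at 6.24 to 17.5 CPM in RalAB cKO, 0.796 to 2.41 CPM in RalA cKO and 2.06 to 4.75 CPM in control. Log2 fold changes of these 5 genes ran from 1.83 to 2.92 for RalAB cKO over RalA cKO and from 1.30 to 2.26 for RalAB cKO over control.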

How the data were processed

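Per the labels, RNA of sorted cells from 1 spinal cord per mouse was extracted with Trizol and prepared with a stranded mRNA kit, so mice were the replicates. Each deposited file listed per transcript an effective length, an estimated count and a TPM value. Per the submitters' processing notes, the authors used Trimmomatic 0.36 and kallisto 0.44 with GRCm38.p6, and no strand setting is named. The TPM values deposited by the authors were used to order levels between genes and to weight transcript lengths. Effective lengths, as deposited, entered only the length offsets.

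Of 121843 transcripts, 121104 matched GENCODE vM21 by identifier, and the 739 others held 0.2185% to 0.2772% of counts. The estimated counts of the authors were summed over 35675 genes, rounded and tested with edgeR 4.0.16 (R 4.3.3; TMM, robust quasi-likelihood F test, minimum count 10, total 15, 1 mean per group over all 12 libraries). Benjamini-Hochberg adjustment ran over all 13456 tested genes or 31497 tested transcripts, with a threshold of 0.05. Standard errors were taken as the absolute log2 fold change over the root of F, and the biological coefficient of variation was 0.199. Chi-square values per degree of freedom between libraries of a group were 9.09 to 39.5, so all 12 counted as separate.

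The members, marker lists and motifs were chosen with earlier results of these data known. Named by rule were the 8 members, Ralb, Rala, up to 6 other called genes of the window (there were none), member transcripts with at least 5% of the counts of the gene, and the 5 genes most like the member with the largest difference between the mutants. Marker lists of endothelial cells, pericytes and fibroblasts, and Schwann cells had 0, 0 and 0 calls in RalAB cKO over RalA cKO and 0, 0 and 1 in RalAB cKO over control. Alternatives were DESeq2 1.42.0 size factors, library totals, no count filter, the DESeq2 test, fits to the 2 groups of a comparison alone, transcript length offsets, a block for mouse number, and each library left out in turn. The summed oligodendrocyte marker list is not reported here.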

Additional observations from a re-analysis of the deposited data

Results flagged for a closer look

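The 8 genes gave 24 sets of 4 mice, and in 3 of these the most extreme mouse lay further from its neighbour, relative to the range of the set, than the 95% limit of Dixon's test. Chance alone passes that limit in about 1 in 20 sets. Tmem37 was at 1.63 CPM in control mouse 3, with a gap of 0.892 of the range. That mouse had the highest sum of its group in 5 further marker lists as well as in the microglia list: microglia 562 CPM (the other 3 mice 255 to 414), oligodendrocyte precursor 3880, astrocyte 489, neuron 143, endothelial 54.0, and pericyte and fibroblast 25 CPM. In the Schwann cell list it had the lowest sum of its group, 1290 CPM (the other 3 mice 1340 to 1740). The part of these sums in the Tmem37 level was not tested. Inhbb was at 2.56 CPM in RalA cKO mouse 4 (gap 0.884), and Ptpn4 was at 7.79 CPM in RalAB cKO mouse 1 (gap 0.860).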

How the results depend on the processing

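Over the alternatives, Inhbb (-2.29 to -1.53), C1ql2 (-1.54 to -1.25) and Steap3 (1.22 to 1.76) in RalAB cKO over control, and Tmem37 (2.75 to 3.17) in RalAB cKO over RalA cKO, passed the threshold in 19 of 19. Tmem37 in RalAB cKO over control (1.61 to 2.64) passed in 15 of 19 and lost its call without RalAB cKO mouse 3 (1.73) or 4 (1.66) and without control mouse 2 (1.61) or 4 (1.70). Epb41l5 in RalA cKO over control passed with DESeq2 alone (-0.93). Length offsets moved Clasp1 to 0.17 and Ptpn4 to 0.51 in RalAB cKO over RalA cKO. No fitted member that was called changed sign in any alternative. The alternatives refit the same libraries, and the members were chosen with measured values known. These passes therefore describe the fits and lend the members no support.

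Across all genes, calls in RalA cKO over control were 374, against 1079 with DESeq2 and 232 with mouse number as a block, and 85 to 947 with a library left out (lowest without RalA cKO mouse 4, highest without control mouse 1). In RalAB cKO over control, 2478 calls became 1605 to 3209, and in RalAB cKO over RalA cKO 1551 became 1117 to 1678, with a library left out. Near Ralb, calls were 1 to 2 (1 with all 12) in RalAB cKO over RalA cKO, 3 to 6 (5) in RalAB cKO over control and 0 to 1 (1) in RalA cKO over control with a library left out, and 2 with DESeq2 in RalA cKO over control. Near Rala, RalAB cKO over control gave 0 to 2 (1) with a library left out and 2 with length offsets, and RalA cKO over control gave 1 with length offsets (0). The cause was not tested.

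Transcript calls with mouse number as a block were 231 against 480 in RalAB cKO over RalA cKO, 272 against 529 in RalAB cKO over control and 4 against 37 in RalA cKO over control, where library totals gave 59. The labels do not pair mice by number: deviations of mice with the same number correlated at -0.198 to 0.175, and 1 of 12 libraries correlated best with its own number in both other groups. The block changed no gene call among the 8 members. Scaling by library totals shifted all log2 fold changes by a median of -0.116 in RalA cKO over control, where the share of higher calls became 41.3% against 61.5%.

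Low read numbers limit Inhbb and Tmem37, which had under 50 counts in nearly every library, and transcript assignment limits Steap3, Clasp1 and Ptpn4 transcripts. The floxed Ralb alleles, any chromosome segment linked to them and the higher share of microglial RNA coincide in RalAB cKO mice and cannot be told apart from these libraries.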
